A study of Rattus norvegicus with 43 samples.

Results

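Thyroid hormone receptors and 3 genes known to respond to thyroid hormone were followed in female rats given a retinoid or none. The genes were Thra and Thrb, which encode the receptors, Dio1, which encodes the type 1 deiodinase, Klf9, which encodes a Krüppel-like transcription factor, and Thrsp, known as Spot 14. They were chosen by name, as the probe sets whose symbol in the platform annotation is 1 of these 5, and 8 of the 8799 probe sets of the array carry such a symbol. Thra has 3 probe sets, Dio1 and Klf9 have 2 each and Thrb has 1. No probe set carries the symbol Thrsp in the annotation used here, so no value is given for it. The 4 genes described are among 4948 that the array names by a single symbol.

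RNA of liver, lung and mammary gland was hybridised to Affymetrix rat genome arrays, 43 in all, 1 per sample. Gavage delivered Targretin at 60 mg per kg body weight, and the other groups received 9-cis retinoic acid (9cRA) at 100 mg per kg diet, 4-hydroxyphenylretinamide (4HPR) at 782 mg per kg diet, or diet alone. All were female Sprague-Dawley rats, an outbred stock, and treatment lasted 7 days from an age of 100 days. Targretin (bexarotene) binds the retinoid X receptors, 9cRA binds both the retinoid X and the retinoic acid receptors, and 4HPR is a synthetic amide of retinoic acid. The labels name no gavage control, so the gavage and Targretin cannot be told apart, and doses and routes differ between the agents. Each organ and agent formed a group of 4 arrays, except that Targretin in all 3 organs, 4HPR in mammary gland and diet in lung had 3.

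Thyroxine, the main product of the thyroid, becomes the active hormone triiodothyronine when a deiodinase takes iodine from its outer ring, and the liver is rich in the type 1 enzyme. The active hormone binds receptors that sit on DNA mostly as pairs with a retinoid X receptor, the protein that Targretin also binds. In rodent liver Dio1 is raised by the hormone, and Klf9 is a direct target of the receptors that was described in frogs and mice. In patients, bexarotene is known to lower thyrotropin and with it thyroid hormone. No hormone level of these rats was analysed here, and in whole organs fewer cells of a type and less RNA per cell cannot be told apart.

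The sequences of the 250 bases before the start of Dio1 and Klf9 are shown because these were the members that changed against diet. They are RefSeq sequences of the rat build GRCr8, written 5′ to 3′ along the gene, Dio1 at chr5:127319785-127320034 on the minus strand and Klf9 at chr1:230126396-230126645 on the plus strand. Capitals mark the letters CCAAT on either strand.
Dio1: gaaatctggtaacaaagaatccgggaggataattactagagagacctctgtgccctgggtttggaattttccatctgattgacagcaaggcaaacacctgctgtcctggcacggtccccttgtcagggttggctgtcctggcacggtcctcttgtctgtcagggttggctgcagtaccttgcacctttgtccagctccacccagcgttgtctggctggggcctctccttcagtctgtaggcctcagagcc
Klf9: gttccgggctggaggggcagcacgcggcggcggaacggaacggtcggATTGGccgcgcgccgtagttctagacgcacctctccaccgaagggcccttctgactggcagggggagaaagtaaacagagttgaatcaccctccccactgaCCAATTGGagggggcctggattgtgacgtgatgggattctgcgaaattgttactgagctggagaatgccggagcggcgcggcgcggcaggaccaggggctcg
The Klf9 window holds 3 matches to CCAAT, beginning 203, 102 and 99 bases before the start, and the last of these overlap on opposite strands as CCAATTGG. The Dio1 window holds none, and 37.5% of all 33469 rat windows that run from 250 bases before to 50 after a gene start hold at least 1. The letters AGGTCA, which thyroid hormone and retinoid receptors share as a contact, were searched on both strands and were in neither window, against 16.2% of all windows. No match says only that those letters are not in this stretch.

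On the linear MAS5 scale of the deposited intensities, liver arrays had medians of 265.9 to 389.7, lung arrays of 466.2 to 633.3 and mammary gland arrays of 346.9 to 441.4. Testing needed a signal over the array's 40th percentile, which lay between 164 and 418.1, on at least 3 arrays of the organ. Liver kept 6 member probe sets, and lung and mammary gland kept 4 each, so 42 contrasts against diet were tested. Changes are differences of log2(signal + 38.1), agent minus diet, with the standard error of limma, and a call is a Benjamini-Hochberg adjusted p under 0.05 over all probe sets tested in the organ. Nothing in the labels ties each array to an animal of its own, so these p-values measure only the spread between arrays, which may be technical. The markers of each labelled organ were present. Lung epithelium markers summed to 212661.6 to 380001.2 on lung arrays and to at most 19686.5 elsewhere, mammary epithelium markers to 48675.1 to 350469.0 on mammary gland arrays and at most 15373.7 elsewhere, and 8 hepatocyte markers, without Ttr and Alb, to 359072.5 to 678902.9 on liver arrays and at most 100764.4 elsewhere. The skeletal muscle markers Ckm, Acta1, Myh4, Myl1, Tnnt3 and Pvalb summed to 57899.5 on Targretin mammary gland array 3, against 1777.5 to 3381.2 on the other mammary gland arrays. This array and 3 others that an earlier analysis of these data set apart (diet liver 2, 4HPR liver 4 and Targretin lung 2) are called the doubted arrays, and results that rest on them are given with and without them.

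**Figure D1:**
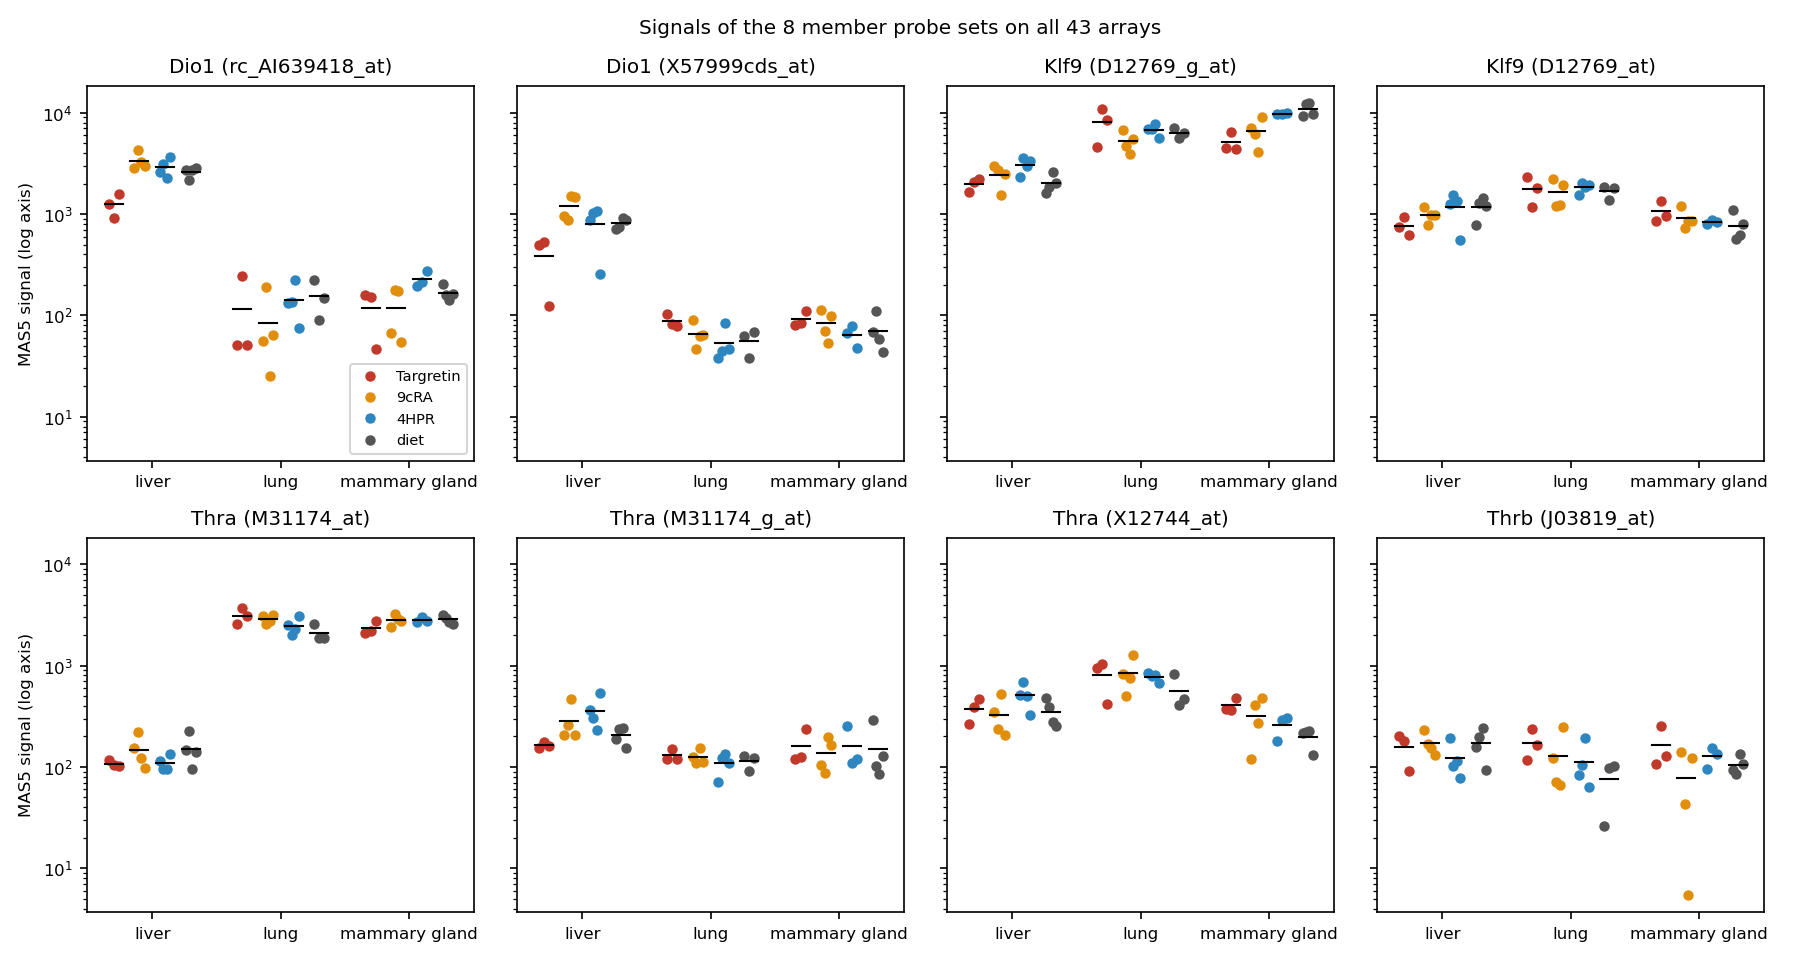
MAS5 signal (log axis) of the 8 member probe sets on each of the 43 arrays, by organ and, from left to right, Targretin, 9cRA, 4HPR and diet; points are arrays and lines are group means. Both Dio1 probe sets are high in liver alone, M31174_at of Thra is low in liver, and Thrb stays between 5.4 and 255.8 everywhere.

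The receptors come first. Thra encodes the receptor form that is known to prevail in heart, brain, bone and fat, and Thrb the form that prevails in liver. The probe set M31174_at of Thra was far lower in liver than in the other organs of untreated rats. Its signal was 147.0, 224.8, 95.2 and 139.9 on the diet liver arrays, against 2549.5, 1865.4 and 1892.6 on the diet lung arrays and 3167.6, 2965.1, 2678.7 and 2589.6 on the diet mammary gland arrays. No liver array came near any array of the other organs. It lay under the array's 40th percentile on all 15 liver arrays, and it entered the organ fit through the organs where it is high, so its p is not given. With each liver array set to the higher of its signal and that percentile, diet liver was at least 7.81-fold lower than diet lung and at least 10.6-fold lower than diet mammary gland, on the scale of log2(signal + 38.1), the bound used wherever a group lay under that percentile. In untreated rats 53.8% of the 6921 probe sets were called between liver and lung, 57.8% between liver and mammary gland and 41.9% between mammary gland and lung, so a call between organs is common. The median difference of all probe sets was -0.37 for liver against lung and -0.18 for mammary gland against lung, and quantile normalization moved these medians by 0.28 and 0.21.

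Other probe sets of Thra gave other orders of the organ means. X12744_at was 199 ± 45.9 in diet mammary gland (n = 4) and 568 ± 232 in diet lung (SD, n = 3). As 1 of the 4 diet mammary gland arrays was above the 40th percentile, only a bound is given, at least 2.09-fold lower in mammary gland than in lung. Diet liver, at 351 ± 106, was not called against either. M31174_g_at was 205 ± 41.8 in diet liver, against 114 ± 19.4 in diet lung and 152 ± 95.3 in diet mammary gland. It passed the array's 40th percentile on 7 of 15 liver arrays, 0 of 14 lung arrays and 2 of 14 mammary gland arrays, so no fold is given. So 1 probe set of the gene put liver lowest, while another had its highest mean there at signals mostly under that percentile. Which of them reads which transcript of the gene is not given in the sources used here. Thra overlaps Nr1d1, which encodes the clock repressor Rev-erb alpha, on the opposite strand, and whether any of these probe sets lies in the overlap was not tested.

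No agent gave a called change of Thra. Of the 18 contrasts against diet, 0 passed limma's adjusted p and 4 had an unadjusted p under 0.05. These 4 were in lung with Targretin and with 9cRA, in liver with 4HPR and in mammary gland with Targretin. Over all probe sets, 1391 and 656 of 5935, 1142 of 6084 and 1833 of 6059 had such a p in these contrasts. The widest change was that of X12744_at in mammary gland with Targretin. It had signals of 371.3, 365.2 and 475.4 with Targretin, 120.4, 404.4, 271.0 and 480.6 with 9cRA, 181.7, 292.3 and 303.7 with 4HPR, and 218.4, 219.9, 227.9 and 130.7 on diet. All Targretin arrays lay above all diet arrays, and those of 9cRA and 4HPR overlapped them. The change was 0.91 ± 0.38 with Targretin (adjusted p = 0.12), where 13.1% of all probe sets were called, and 0.48 and 0.32 with 9cRA and 4HPR. As only 1 of the 4 diet arrays was above the 40th percentile, the sizes of these changes are uncertain. In lung, M31174_at stood at 2548.7, 3684.8 and 3119.0 with Targretin, 3117.6, 2558.6, 2724.4 and 3150.8 with 9cRA and 2494.1, 2015.7, 2316.3 and 3094.7 with 4HPR, against 2549.5, 1865.4 and 1892.6 on diet. The 9cRA arrays all lay above the diet arrays, and the Targretin and 4HPR arrays overlapped them. The changes were 0.56 ± 0.20, 0.46 ± 0.19 and 0.23 ± 0.19 (adjusted p = 0.12, 0.42 and 0.9997). With array quality weights the 9cRA change, 0.57, passed (adjusted p = 0.014). The same probe set in mammary gland gave -0.28 with Targretin, -0.021 with 9cRA and -0.015 with 4HPR, and none of these passed. The remaining contrasts of Thra were not called either. X12744_at gave 0.45, 0.53 and 0.49 in lung with Targretin, 9cRA and 4HPR (lowest adjusted p = 0.47) and 0.10, -0.13 and 0.48 in liver (lowest adjusted p = 0.41). M31174_g_at, tested in liver alone, gave -0.25, 0.36 and 0.66 (lowest adjusted p = 0.24).

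Thrb could not be tested in any organ. The signal of its probe set J03819_at was 203.2, 181.2 and 91.1 with Targretin, 232.4, 167.1, 152.2 and 131.7 with 9cRA, 194.6, 101.7, 113.9 and 77.4 with 4HPR, and 156.5, 198.5, 240.7 and 93.4 on diet in liver. These overlap throughout. It passed the array's 40th percentile on 1 of 15 liver arrays and on 0 of 14 arrays of each other organ, where it ranged over 26.2 to 248.7 (lung) and 5.4 to 255.8 (mammary gland). At this signal no difference between groups was detectable.

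Dio1, the deiodinase, fell in liver with Targretin. Its brighter probe set, rc_AI639418_at, had signals of 1245.0, 910.4 and 1574.8 on the Targretin liver arrays. With 9cRA it had 2860.2, 4251.7, 3244.3 and 2963.7, with 4HPR 2598.2, 3117.7, 2271.6 and 3650.5, and on diet 2739.2, 2183.9, 2715.2 and 2869.2. Every Targretin array lay below every other liver array, while 9cRA and 4HPR overlapped diet. The mean was 1243 ± 332 with Targretin (n = 3) and 2627 ± 303 on diet (SD, n = 4), a change of -1.08 ± 0.20 (limma adjusted p = 0.0019), which is 2.12-fold lower. It passed in all alternatives, with changes of -1.26 to -0.88 and adjusted p up to 0.018 when single arrays were left out. In this contrast 11.1% of all probe sets were called. Beside it, the 8 hepatocyte markers summed to 366142.4 to 465547.5 on the Targretin liver arrays and 359072.5 to 436058.9 on the diet liver arrays. Of the 8 marker lists summed, 3 overlapped between these groups (hepatocyte, lung epithelium and skeletal muscle) and 5 did not. The 4 macrophage and antigen presenting cell markers summed to 7386.0 to 9707.6 with Targretin and 14599.8 to 16523.5 on diet, and the 2 erythroid markers to 16517.9 to 31712.8 with Targretin and 37791.9 to 66645.5 on diet. The adipocyte, brown adipocyte and mammary epithelium sums were higher, the first at 9314.8 to 10834.2 with Targretin and 7070.5 to 7933.0 on diet. The brown adipocyte sums, over 3 genes, were 1378.8 to 2081.4 and 667.5 to 1219.3. The mammary epithelium sums, over 6 genes, were 1358.6 to 3537.5 and 671.8 to 1087.7. Both are low signals that need not show cells of these types in liver. The part of these markers in the fall of Dio1 was not tested. With 9cRA the change was 0.33 ± 0.19 (adjusted p = 0.37) and with 4HPR 0.13 ± 0.19 (adjusted p = 0.76), in contrasts where 5.16% and 2.78% of all probe sets were called.

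The agents were also set against each other in liver, in 3 pairs with p-values adjusted over all probe sets of the pair. For the brighter Dio1 probe set, the Targretin group lay -1.41 from 9cRA (95% interval -1.84 to -0.98, adjusted p = 0.00022) and -1.21 from 4HPR (-1.64 to -0.78, adjusted p = 0.00088). These pairs called 5.72% and 7.87% of all probe sets. The agents 9cRA and 4HPR differed by 0.20 (-0.20 to 0.60, adjusted p = 0.71), in a pair with 0.164% called, and the interval leaves room for a difference either way. Doses and routes were not matched, so these values set the treatments side by side as given.

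The dimmer Dio1 probe set, X57999cds_at, was lower with Targretin too, with more spread. Its signals in liver were 495.3, 529.0 and 122.6 with Targretin, 963.6, 868.9, 1513.3 and 1464.3 with 9cRA, 877.6, 1022.6, 1070.7 and 255.9 with 4HPR, and 705.4, 744.4, 925.0 and 881.3 on diet. All Targretin arrays lay below all 9cRA and diet arrays, and 4HPR array 4, a doubted array, fell among the Targretin ones. The Targretin change was -1.21 ± 0.44 and was not called (adjusted p = 0.093), and it passed with array quality weights (-1.13, adjusted p = 0.038) and without the doubted arrays (-1.25). Targretin minus 9cRA was -1.72 (adjusted p = 0.027), a call that was lost without Targretin liver array 3 (-1.13) or without 9cRA liver array 3 or 4, with adjusted p up to 0.15. Targretin minus 4HPR was -1.04 (adjusted p = 0.17) with all arrays and -1.49 without 4HPR liver array 4 (adjusted p = 0.015). Across the 15 liver arrays the Dio1 probe sets had a Pearson r of 0.41, a description over arrays that share their treatment groups.

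**Figure D2:**
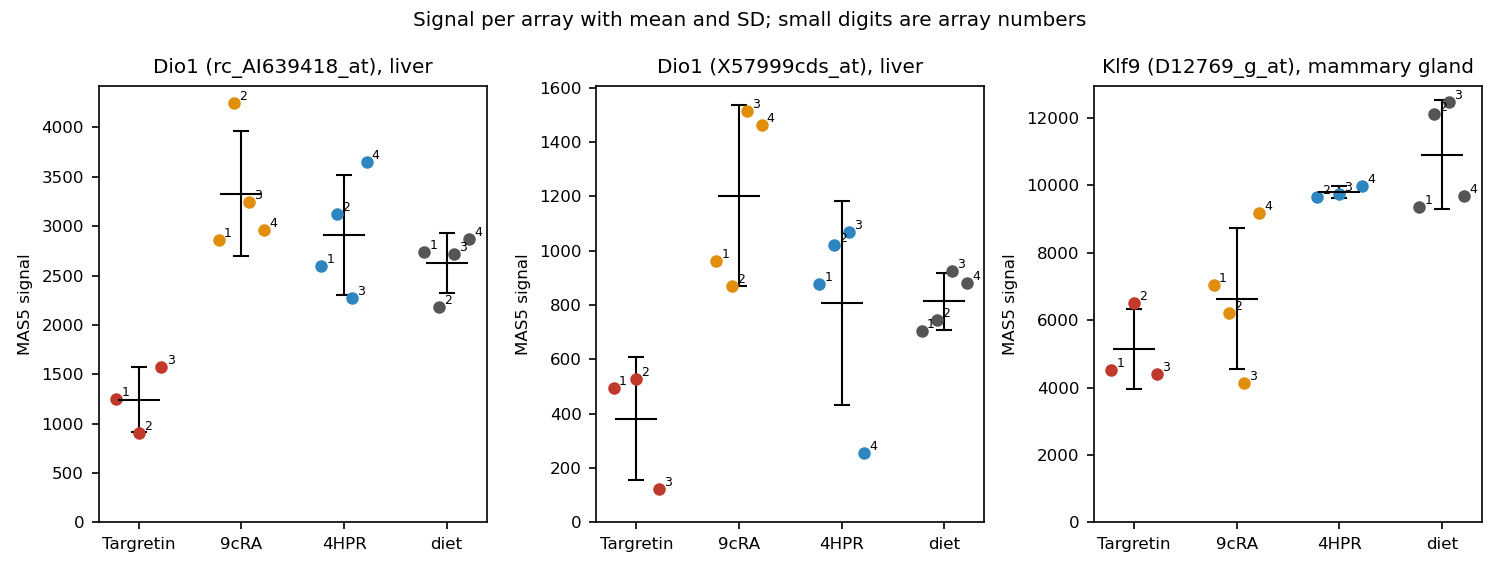
MAS5 signal per array of both Dio1 probe sets in liver and of Klf9 D12769_g_at in mammary gland, for Targretin, 9cRA, 4HPR and diet; crossbars are means, whiskers are SDs and small digits are array numbers. All Targretin arrays lie below all diet arrays in each panel, and 4HPR liver array 4, at 255.9, lies below the other 4HPR arrays of X57999cds_at.

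Outside liver, Dio1 gave no signal that could be tested. On diet rc_AI639418_at was 2627 ± 303 in liver, against 155 ± 68.1 in lung and 168 ± 26.4 in mammary gland. With lung and mammary gland arrays set to their 40th percentile, liver was at least 7.76-fold higher than lung and at least 9.68-fold higher than mammary gland. For X57999cds_at, which lay under that percentile on every lung and mammary gland array, liver was at least 2.48-fold higher than lung and at least 3.09-fold higher than mammary gland. Both probe sets entered the organ fit through liver alone, so no p is given, and lung and mammary gland are not compared. Over all agents the lung arrays had 25.2 to 247 for the brighter probe set and the mammary gland arrays 46.6 to 272.6, and it passed the array's 40th percentile on 0 of 14 and 1 of 14 arrays. Whether Targretin changed Dio1 there cannot be told at this signal.

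Klf9 fell in mammary gland with Targretin by the brighter of its probe sets, D12769_g_at. The signals were 4512.5, 6502.5 and 4399.6 with Targretin, 7044.7, 6210.9, 4141.6 and 9175.6 with 9cRA, 9659.7, 9759.3 and 9996.0 with 4HPR, and 9351.5, 12124.6, 12466.3 and 9677.4 on diet. All Targretin arrays and all 9cRA arrays lay below all diet arrays, and the 4HPR arrays lay within the range of diet. The means were 5138 ± 1183 with Targretin (n = 3) and 10905 ± 1617 on diet (SD, n = 4), a change of -1.09 ± 0.24 (limma adjusted p = 0.0099), or 2.13-fold lower. It passed in all alternatives, with changes of -1.27 to -0.99 and adjusted p up to 0.045 when single arrays were left out. The 9cRA change was -0.76 ± 0.22 and did not pass (adjusted p = 0.14), and that of 4HPR was -0.14 ± 0.24 (adjusted p = 0.999). With 9cRA and with 4HPR, 0% of all probe sets in mammary gland were called by limma, while 1130 and 180 had an unadjusted p under 0.05.

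Between agents in mammary gland, Targretin minus 4HPR was -0.95 for D12769_g_at (95% interval -1.49 to -0.41, adjusted p = 0.048). That call was lost under quantile normalization (adjusted p = 0.068), without the filter on low values, without the doubted arrays (-0.85) and without any 1 of 5 arrays, which were Targretin 1 and 3 and 4HPR 2, 3 and 4. Against 9cRA the Targretin value was -0.34 (-0.84 to 0.17, adjusted p = 0.65). The difference of 9cRA from 4HPR, -0.62, had an interval of -1.12 to -0.11 and did not pass (adjusted p = 0.48). These pairs called 4.23%, 2.05% and 0.0495% of all probe sets in the order given.

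The second Klf9 probe set did not follow the first. D12769_at had 862.0, 1360.9 and 963.7 in mammary gland with Targretin, 1201.3, 735.7, 862.4 and 862.8 with 9cRA, 806.0, 868.3 and 837.9 with 4HPR, and 1102.9, 562.9, 628.0 and 791.4 on diet. The groups overlapped and the Targretin change was 0.46 ± 0.25, of the opposite sign and not called (adjusted p = 0.22). The Pearson r between the Klf9 probe sets was 0.20 over 15 liver arrays, 0.0066 over 14 lung arrays and -0.42 over 14 mammary gland arrays, so the fall of Klf9 rests on 1 of its 2 probe sets. The probe sets also ranked untreated organs differently. D12769_g_at was 2012 ± 415 in diet liver, against 6371 ± 697 in diet lung and 10905 ± 1617 in diet mammary gland. The differences were -1.66 for liver against lung, -2.43 for liver against mammary gland and 0.77 for mammary gland against lung (adjusted p = 3.3e-07, 9.2e-12 and 0.011). The last was lost without diet lung array 3 (adjusted p = 0.054). D12769_at was 1177 ± 285 in diet liver, 771 ± 241 in diet mammary gland and 1680 ± 264 in diet lung, and put mammary gland lowest. For mammary gland against lung the difference was -1.12 (adjusted p = 0.0013). Liver against mammary gland was 0.60 (adjusted p = 0.047), a call lost without the doubted arrays (0.54, adjusted p = 0.052), without the filter on low values (adjusted p = 0.057) and without any 1 of 7 diet arrays, which were liver 2, 3 and 4, mammary gland 2, 3 and 4 and lung 4.

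In liver and lung no agent gave a called change of Klf9. In liver D12769_g_at had 1645.6, 2078.7 and 2199.5 with Targretin, 2959.2, 2701.0, 1557.5 and 2490.5 with 9cRA, 2337.2, 3594.9, 3009.5 and 3356.8 with 4HPR, and 1614.6, 1843.6, 2586.6 and 2003.5 on diet. The 4HPR arrays were mostly higher than diet and overlapped it, and the change was 0.61 ± 0.20 (adjusted p = 0.12). The change was -0.016 ± 0.22 with Targretin and 0.25 ± 0.20 with 9cRA. D12769_at had changes in liver of -0.58 to -0.064 over the agents (lowest adjusted p = 0.25). In lung D12769_g_at had 4571.2, 10972.1 and 8501.3 with Targretin, 6702.6, 4693.9, 3910.1 and 5547.4 with 9cRA and 6838.5, 6855.4, 7685.6 and 5597.7 with 4HPR, against 7062.5, 5668.6 and 6381.4 on diet, so Targretin arrays lay on both sides. Over the agents the changes in lung were -0.31 to 0.25 for this probe set and -0.062 to 0.13 for D12769_at (lowest adjusted p = 0.61 and 0.95). In lung 2.39% of all probe sets were called with Targretin, and 0% with 9cRA and with 4HPR, where 656 and 273 had an unadjusted p under 0.05. Between agents in lung 0.0168% were called for Targretin against 9cRA, 1.45% for Targretin against 4HPR and 0% for 9cRA against 4HPR, where 566 had an unadjusted p under 0.05, and no member was among the calls.

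**Figure D3:**
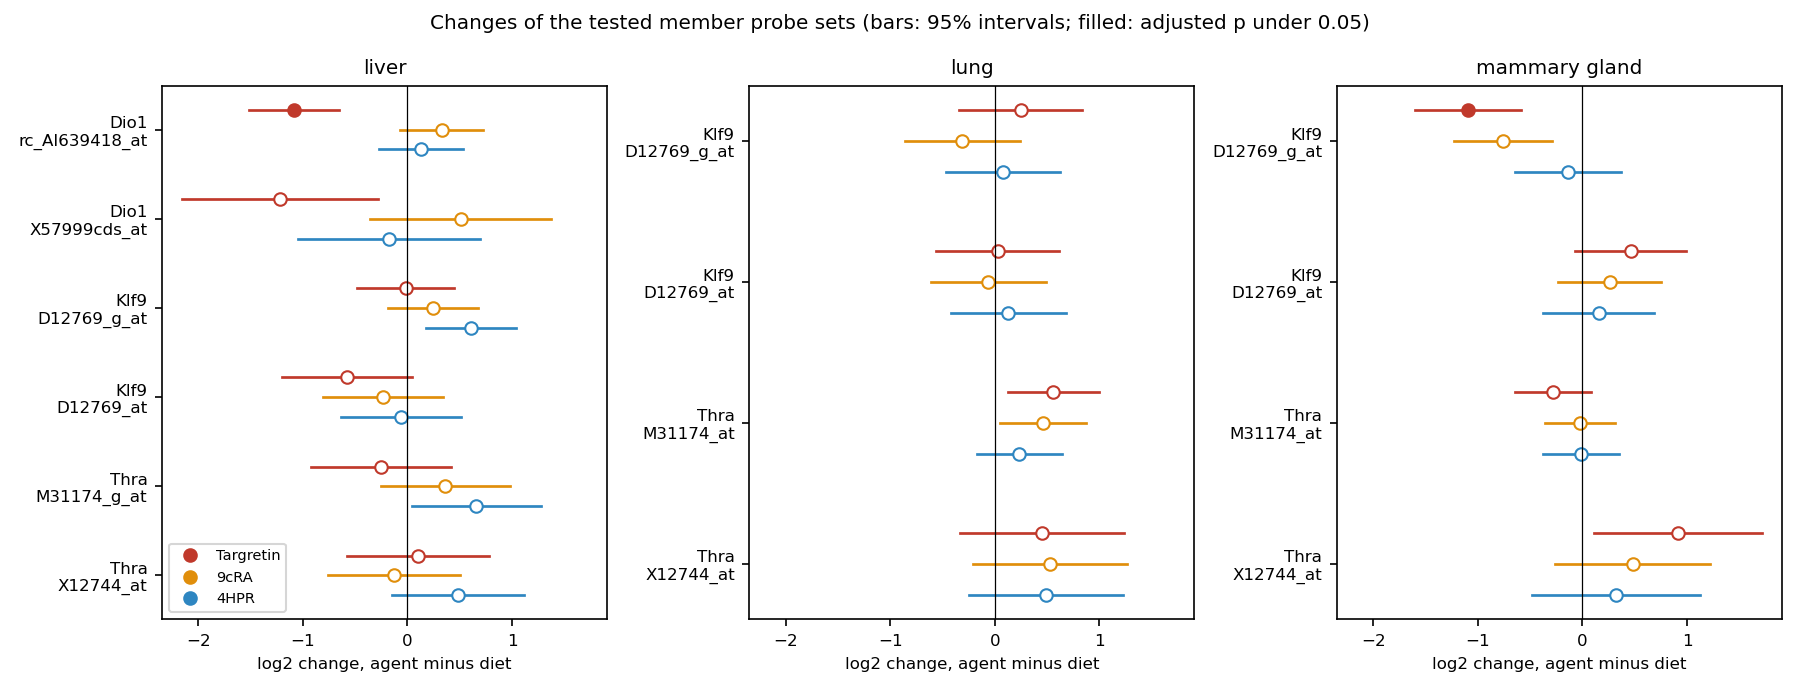
Log2 change against diet of the member probe sets tested in each organ, for Targretin, 9cRA and 4HPR; points are limma estimates, bars are 95% intervals and filled points have an adjusted p under 0.05. Of 42 changes, 2 passed, Dio1 rc_AI639418_at in liver (-1.08) and Klf9 D12769_g_at in mammary gland (-1.09), both with Targretin.

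Whether a change differed between organs was tested for the 3 member probe sets that passed the filter in all of them. The Targretin change of Klf9 D12769_g_at differed, with a moderated F of 7.87 (limma adjusted p = 0.017), where 13.3% of the 5120 probe sets were called. Its change in mammary gland minus that in lung was -1.34 (95% interval -2.07 to -0.60), and its change in liver minus that in lung was -0.26 (-0.997 to 0.474). The call was lost without the doubted arrays (adjusted p = 0.14) and without Targretin mammary gland array 1 or 3 (adjusted p up to 0.063). D12769_at had an adjusted p of 0.16 and X12744_at of Thra 0.51. For 9cRA and 4HPR, 0.371% and 0% of all probe sets were called and no member was, and for 4HPR 362 probe sets had an unadjusted p under 0.05. Dio1 was under the filter outside liver and was tested only when probe sets passing in at least 1 organ were kept, where the Targretin change had an adjusted p of 0.69 for rc_AI639418_at and 0.0497 for X57999cds_at. Both rest on lung and mammary gland signals under the filter, so they do not show whether the change of Dio1 differed between organs.

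In all, 2 of the 42 member contrasts against diet were called and 9 had an unadjusted p under 0.05. Both calls were falls with Targretin. With this agent 2 of 6 in liver, 1 of 4 in lung and 2 of 4 in mammary gland had an unadjusted p under 0.05. Over all probe sets 1449 of 6084, 1391 of 5935 and 1833 of 6059 did. In liver 1 of 6 probe sets was called, against 11.1% of all, and in mammary gland 1 of 4, against 13.1%, so neither count sets the members apart from the background. With Targretin the members' median change in liver was -0.42, beside -0.016 over all probe sets tested there. The same medians in lung were 0.35 and 0.063, and those in mammary gland 0.092 and 0.11.

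Other genes of the pathway were taken from 3 lists. Each gene was read in each organ by its tested probe set with the highest mean there, so 8 of 37 genes are read by different probe sets in different organs. The first holds genes that thyroid hormone is known to raise in rodent liver or fat, 20 of whose 29 genes are on the array. In Targretin liver 6 of the 19 tested rose and 0 fell by these probe sets, and the absence of falls rests on that choice. Counting a gene by any of its probe sets, a count added after the data were seen, 8 rose and 3 fell, with Igf1, a growth factor, in both counts (1.11 by M15481_at and -0.81 by D00698_s_at). The other falls, named after their values were seen, were those of Scarb1, a lipoprotein receptor, by D89655_at, with 703 ± 123 with Targretin and 1658 ± 154 on diet (-1.20, adjusted p = 0.00015), and of Apoa1 by M00001_i_at, with 5371 ± 751 with Targretin and 10829 ± 1469 on diet (adjusted p = 0.00039). The added rise of Gpd2, by X78593_at, is set against diet signals under the 40th percentile on all arrays. The probe sets used for the list gave 0.075 for Scarb1 and -0.43 for Apoa1, neither called. The list's median was 0.37, against -0.016 over all probe sets, of which 11.1% were called. Fatty acid synthase, Fasn, was 32113 ± 12133 with Targretin (n = 3) and 3786 ± 342 on diet (SD, n = 4), a rise of 3.01 ± 0.35. Malic enzyme, Me1, which supplies NADPH for lipid synthesis, had signals of 12095.0, 5375.0 and 5357.6 with Targretin, against 1744.6, 1448.3, 2049.7 and 2239.1 on diet. All Targretin arrays were above all diet arrays, and the rise was 1.91 ± 0.25 (adjusted p = 7.5e-05). Of the 5 probe sets of Me1, 4 were called, and the last gave 0.28 (adjusted p = 0.63). Acaca, acetyl-CoA carboxylase, rose by 1.78 ± 0.41, which did not pass without Targretin liver array 1 (adjusted p = 0.053). Atp1b1, a subunit of the sodium pump, rose by 1.46 ± 0.20. The remaining rises, named after their values were seen, were Por, the electron donor of cytochromes P450, at 1.10, and Srebf1, a regulator of lipid synthesis, at 1.28, the second at an adjusted p of 0.049. Srebf1 missed the threshold without the doubted arrays (adjusted p = 0.061), without Targretin liver array 1 (a change of 0.66, adjusted p = 0.28) or without any 1 diet liver array. A list chosen with results known is no independent evidence of direction.

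With 9cRA and with 4HPR 1 of the 19 genes was called in liver, beside 5.16% and 2.78% of all probe sets. By any of the 41 probe sets of these genes, 4 and 2 genes were called. Apoa1, the main protein of high-density lipoprotein, was lower in liver with 9cRA (-0.66, adjusted p = 0.0085) and with 4HPR (-0.84, adjusted p = 0.0036). Its signals were 15171 ± 1565 with 9cRA and 13497 ± 2584 with 4HPR, against 23957 ± 2492 on diet (SD, n = 4 each). These contrasts share the diet arrays. In lung with Targretin 1 of the 16 tested rose and 1 fell, beside 2.39% of all probe sets called. Srebf1 rose by 2.29 and Atp1b1 fell by 1.25 on the log2 scale. Both calls (adjusted p = 0.027) were lost when Targretin lung array 1 or diet lung array 3 or 4 was left out. In mammary gland with Targretin 3 of 19 rose and 1 fell, with a median of 0.40 beside 0.11 over all probe sets, of which 13.1% were called. Scarb1, by D89655_at, rose by 1.92 ± 0.41, with 3416 ± 374 with Targretin and 965 ± 492 on diet, while the same probe set was lower with Targretin in liver. In lung it had 1018 ± 299 with Targretin and 1643 ± 253 on diet (adjusted p = 0.15). Srebf1 rose by 1.85 at an adjusted p of 0.0497, a call lost without any 1 Targretin array, array 3 being the doubted one (adjusted p up to 0.14 over all single arrays left out). Acaca, under the 40th percentile on all diet arrays, was at least 1.66-fold higher with Targretin. It passed the filter mainly through the Targretin arrays, so its p is not given and its call is no support, though the count of 3 rises includes it. Apoa1 fell by 1.42 on the log2 scale (adjusted p = 0.0033), on arrays whose hepatocyte marker sums, given with the transport list, were also lower.

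**Figure D4:**
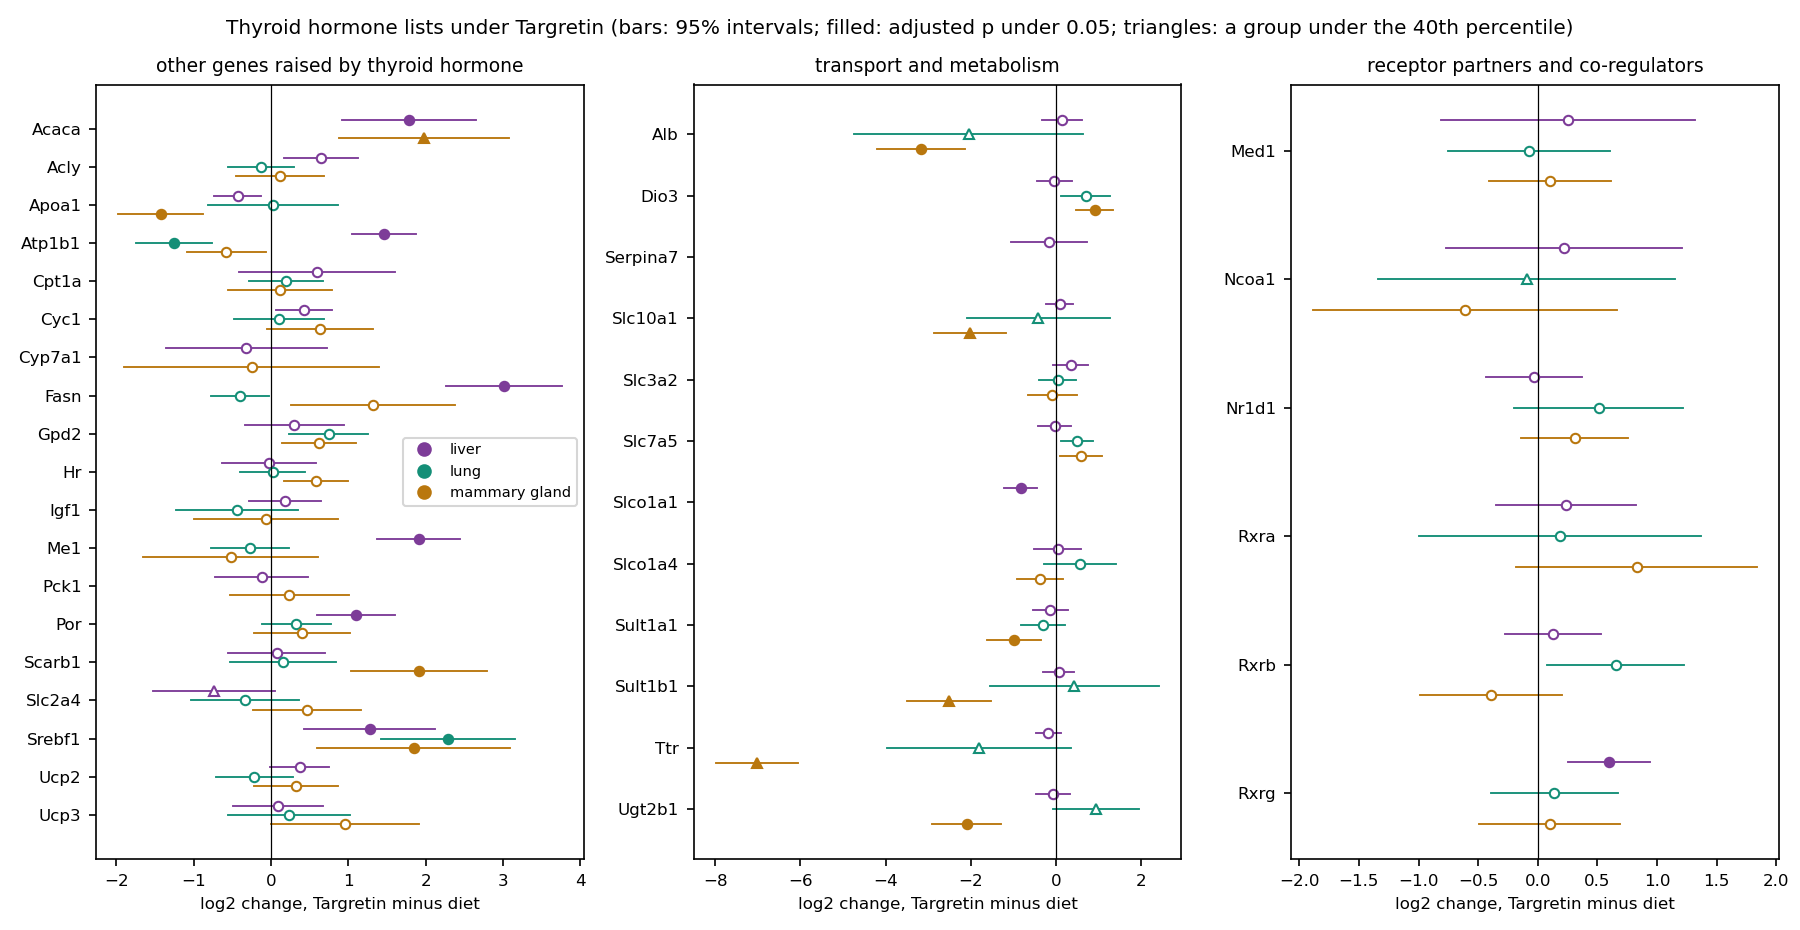
Log2 change, Targretin minus diet, of the genes of the 3 thyroid hormone lists in liver, lung and mammary gland; symbols are limma estimates for the probe set used in that organ, bars are 95% intervals, filled symbols have an adjusted p under 0.05, and triangles mark genes with a group under the 40th percentile on all its arrays, whose place is not a measured size. In liver the filled symbols of the list of genes raised by thyroid hormone lie to the right (Fasn at 3.01), and in mammary gland most filled symbols of the transport list lie to the left (Alb at -3.17).

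The second list holds genes of hormone transport and metabolism, 13 of whose 22 genes are on the array. In Targretin liver 1 of 12 was called, beside 11.1% of all probe sets. Slco1a1, an organic anion transporter of the liver cell membrane, fell by 0.83 on the log2 scale, with 1082 ± 153 with Targretin and 1959 ± 324 on diet. With 4HPR 3 of 12 were called, of which 2 rose, beside 2.78% of all probe sets. Slco1a1 was at -0.70, a call lost without the doubted arrays (-0.54, adjusted p = 0.14), without any 1 of 7 arrays (diet 1, 2 and 4 and 4HPR 1 to 4), under quantile normalization and with only both groups fitted, and Sult1b1 and Slc3a2, a sulfotransferase and the heavy chain of an amino acid and thyroid hormone carrier, were 0.79 and 0.83. Slc3a2 did not pass without the doubted arrays (0.72, adjusted p = 0.079) nor without 4HPR array 3, diet array 2 or diet array 4, with adjusted p up to 0.062 for these single arrays. With 9cRA 1 of 12 was called, beside 5.16% of all probe sets, and this was Ugt2b1, a glucuronosyltransferase, at -0.84. In lung 0 of the 10 tested were called by limma with any agent, and over all 3 lists 7, 7 and 6 of the 32 genes tested there had an unadjusted p under 0.05 with Targretin, 9cRA and 4HPR. Of all 5935 probe sets tested in lung, 1391, 656 and 273 had such a p with Targretin, 9cRA and 4HPR. The list's median in lung was 0.24, 0.39 and 0.996 with these agents, beside 0.063, 0.066 and -0.0029 over all probe sets. The 8 hepatocyte markers summed to 9892.1 to 11903.4, 11525.3 to 16657.2 and 18568.4 to 100764.4 on their lung arrays, and 7595.0 to 26953.5 on diet. The part of these markers was not tested. In mammary gland 9cRA and 4HPR gave 0 calls by limma among the 35 genes of the lists, with 7 and 0 at an unadjusted p under 0.05. Of all 6059 probe sets tested there, 1130 and 180 had such a p.

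In mammary gland with Targretin 6 of the 10 tested genes of the transport list fell and 1 rose, beside 13.1% of all probe sets called. Of those that fell, Ttr, Sult1b1 and Slc10a1 were under the 40th percentile on all Targretin arrays, and Ugt2b1 on all but 1. These passed the filter mainly through groups where they are high, so the count of falls is no support. Ttr, transthyretin, the main carrier of thyroxine in rat blood, had by rc_AA945169_g_at signals of 45.2, 182.8 and 23.7 with Targretin and 13053.0, 15078.3, 15054.1 and 11259.8 on diet. Between them lay 9cRA with 11242.4, 3191.8, 7711.6 and 4303.2 (adjusted p = 0.17 against diet), while 4HPR had 17015.6, 6856.0 and 12704.4. All Targretin arrays lay under their 40th percentile, and this probe set was at least 43.8-fold lower than on diet. It passed the filter through the other groups, where it is high, so its p for Targretin is not given. The second probe set, rc_AA945169_at, gave a smaller fall, with 300.3, 386.2 and 234.2 with Targretin, 6140.3, 2263.5, 3627.4 and 1832.6 with 9cRA and 6119.6, 2617.8 and 4328.5 with 4HPR, against 4606.6, 3341.3, 3026.4 and 4486.9 on diet. Its Targretin arrays again lay below all others, while 9cRA overlapped diet, and the changes were -3.50 with Targretin (adjusted p = 1.7e-05) and -0.29 with 9cRA (adjusted p = 0.70). Albumin, Alb, which also carries the hormone and stayed above that percentile, fell by 3.17 on the log2 scale. Sult1b1 was at least 2.29-fold lower, being under that percentile on all Targretin arrays, and Ugt2b1, above it on 1 of 3, at least 2.54-fold lower. Named after their values were seen, the bile acid carrier Slc10a1 was at least 1.95-fold lower, also under that percentile on all Targretin arrays, and Sult1a1 fell by 0.995 on the log2 scale. The call of Sult1a1 (adjusted p = 0.040) was lost under quantile normalization, without the filter on low values, with only both groups fitted, without the doubted arrays (-0.87, adjusted p = 0.13), and without Targretin array 1 or 3 or diet array 1, 2 or 3. The 1 that rose, also named for its value, was Dio3, which inactivates thyroid hormone, with 1395 ± 62.5 with Targretin and 737 ± 134 on diet (0.90 ± 0.21, adjusted p = 0.013). The median of the list was -1.51, against 0.11 over all probe sets tested, and it rests in part on signals under the 40th percentile.

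Hepatocyte markers moved with these falls. Ttr and Alb are themselves on the hepatocyte marker list, and its 8 other genes (Apoa2, Apoc3, Ahsg, Fgb, Serpina1, Tat, Cyp2c11 and Cyp2e1) summed to 5635.9, 24632.5 and 3502.9 on the Targretin mammary gland arrays. On Targretin array 2 the gene Cyp2e1 alone held 22239.2 of the sum. The sums were 22375.6 to 65471.7 with 9cRA, 37592.8 to 76571.1 with 4HPR and 54445.5 to 69629.1 on diet, beside 359072.5 to 436058.9 in diet liver. None of the 8 is at 0 in any of these groups, which does not show that each was detected. Ahsg, for one, was 12.7 to 159 with Targretin, under the lowest 40th percentile of any array, 164, and 10452.9 to 12725.3 on diet. Untreated liver exceeded untreated mammary gland 4.57-fold for Ttr by rc_AA945169_g_at, 15.8-fold for Sult1b1, 14.0-fold for Ugt2b1 and 26.4-fold for Slc10a1. It did so 2.63-fold for Alb, 1.16-fold for Sult1a1 and 24.8-fold for Apoa1 of the first list. By rc_AA945169_at the gap of Ttr was wider, with 65543 ± 4451 in diet liver and 3865 ± 799 in diet mammary gland. The part of these markers in the falls of the transport list and of Apoa1 was not tested. For Klf9 untreated liver was lower than untreated mammary gland by D12769_g_at and higher by D12769_at (1177 ± 285 against 771 ± 241). Adipocyte markers, by 8 genes, summed to 133936.6 to 201757.6 with Targretin and 193527.2 to 273516.3 on diet. Mammary epithelium markers, by 6 genes, summed to 153524.3 to 245999.2 with Targretin and 85160.2 to 158875.8 on diet. The groups overlapped for both lists, and the part of these markers in the fall of Klf9 was not tested.

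**Figure D5:**
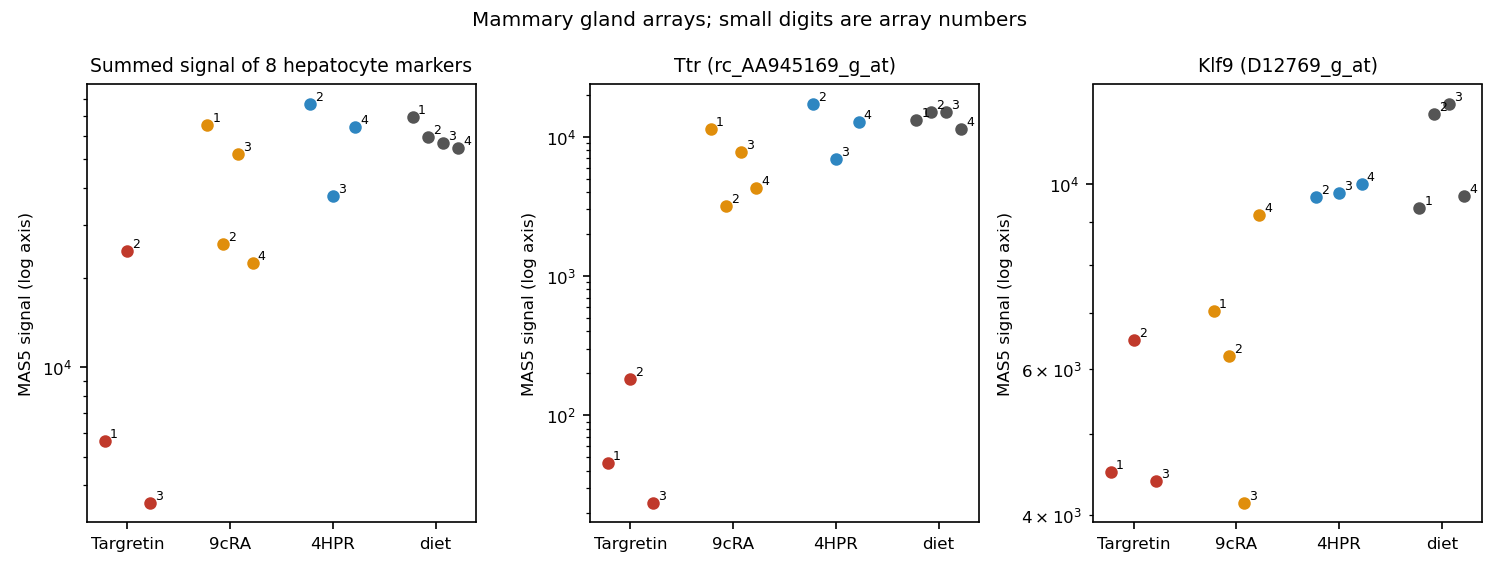
Summed MAS5 signal of 8 hepatocyte markers, signal of Ttr rc_AA945169_g_at and signal of Klf9 D12769_g_at (log axes) on the mammary gland arrays, for Targretin, 9cRA, 4HPR and diet; points are arrays and small digits are array numbers. On Targretin arrays the marker sum is 3502.9 to 24632.5, against 54445.5 to 69629.1 on diet.

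The third list holds receptor partners and co-regulators, 6 of whose 13 genes are on the array, and all 6 were tested in each organ. Of 54 contrasts against diet 1 was called by limma and 5 had an unadjusted p under 0.05. The call was 1 of 6 in liver with Targretin, where 11.1% of all probe sets were called. This count does not set the list apart from the background. Rxrg, a retinoid X receptor, was 4496 ± 604 with Targretin (n = 3) and 2961 ± 452 on diet (SD, n = 4) in liver, a rise of 0.60 ± 0.16 by AF016387_g_at (adjusted p = 0.024). Of its other probe sets AJ223083_at was also called (adjusted p = 0.0024) and AF016387_at was not (adjusted p = 0.24). Leaving out Targretin liver array 1 or 2, or diet liver array 1, 2 or 4, ended the call, with adjusted p up to 0.11. Rxra, the form prevalent in liver, was 0.24 with Targretin in liver and was not called anywhere. Nr1d1, the neighbour of Thra, was measured by M25804_at at 1083 ± 154 with Targretin, 1122 ± 210 with 9cRA and 1143 ± 192 with 4HPR, against 661 ± 181 on diet in liver. Its changes were 0.72, 0.76 and 0.79 and just missed the threshold (adjusted p = 0.057, 0.051 and 0.059). With array quality weights each of the 3 passed. Its second probe set, M25804_g_at, gave -0.030, 0.47 and 0.53, and was not called, though with those weights its 4HPR change passed (0.55, adjusted p = 0.042). These contrasts share the diet arrays.

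The genes whose pattern was most like each member were taken by Pearson r of log2 values, as a description with no test. Over the 12 group means, which mostly set organs apart, Dio1 rc_AI639418_at was most like St6gal1, Amy2a3 and C4bpb (r = 0.995, 0.991 and 0.988). Klf9 D12769_g_at was most like Alg10, Rab10 and Lemd2 (0.971, 0.970 and 0.968), and Thra M31174_at was most like Casp1, Loxl1 and Slit3 (0.997, 0.996 and 0.996). Thrb J03819_at reached 0.924 with Mtdh, at signals mostly below the filter. Over the 15 liver arrays, which share their treatment groups, Dio1 was most like Tle5, Dpyd and Rpp21 (0.903, 0.892 and 0.889), and Klf9 most like Pacsin2, Enpp3 and Nup62 (0.849, 0.792 and 0.763). None of these genes was the same in both rankings of a member.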

How the data were processed

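What was deposited by the authors is MAS5 intensity per probe set on a linear scale, per the submitters' processing notes. The 2% trimmed mean was 1501.78 to 1503.29 on every array, so no further scaling was applied. The number of arrays, not a read depth, limits the precision. Of 8799 probe sets 59 controls were left out. Names came from the platform annotation, in which 7018 probe sets have 1 gene symbol and 308 several, and only the first kind were named. Groups follow the sample labels.

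The pseudocount of 38.1 is the 10th percentile of all values. Tests covered 6084 probe sets in liver, 5935 in lung, 6059 in mammary gland, 5120 passing in all 3 and 6921 in at least 1. limma 3.58.1 (R 4.3.3; eBayes with a trend) was fitted per organ with all 4 groups, and once over 43 arrays for untreated organs and for changes between organs. Simulated data with known changes were used to check the procedure.

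The members and lists were chosen with earlier results of these data known. All member probe sets are named. A list gives up to 4 called genes per comparison, and Rxra, Me1, Ttr and Nr1d1 could be given anywhere; names outside this rule are marked. Alternatives were quantile normalization, leaving out the low-value filter, a pseudocount multiplied by 4, array quality weights, a replicate block, fitting just the 2 groups compared, the filter met in at least 1 organ, and leaving out the doubted or single arrays. Lower bounds of folds, with each array of the dim group set to at least its 40th percentile, and a count of list genes over any of their probe sets were added after the data were seen. Promoters came from RefSeq (GRCr8).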

Additional observations from a re-analysis of the deposited data

Results flagged for a closer look

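Thra X12744_at on diet mammary gland array 4, at 130.7, stood apart from the other diet mammary gland arrays (218.4, 219.9 and 227.9). Its gap to the nearest of them was 0.902 of the range of the group. It was 1 of 56 checks of a member probe set in a group of 4 arrays, and chance gives about 1 in 20. Without this array the change of X12744_at with Targretin in mammary gland was 0.76 (limma adjusted p = 0.22), against 0.91 (adjusted p = 0.12) with it.

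The change of Klf9 D12769_g_at with Targretin differed between the organs (limma, moderated F test, adjusted p = 0.0175). It was -1.09 in mammary gland, -0.016 in liver and 0.25 in lung. As given above, the call was lost without the doubted arrays and without some single Targretin mammary gland arrays. The other Klf9 probe set, D12769_at, was not called by the same test (adjusted p = 0.16), and its change in mammary gland was 0.46.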

How the results depend on the processing

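Of 114 single values checked, 46 were called, and 0 of these turned sign under any alternative run. Within an organ, the replicate numbers did not tie arrays of different agents together. The median correlation of same-numbered deviations was -0.000861 (liver), 0.0256 (lung) and 0.0124 (mammary gland). Of the arrays, 1 of 15, 4 of 14 and 3 of 14 correlated best with their own number. This check stays within an organ. It does not show whether arrays of different organs with the same agent and number came from the same animal. With the replicate block the member calls against diet were 1 in liver and 1 in mammary gland, as without it, and Srebf1 missed the threshold in liver (1.28, adjusted p = 0.063) and in mammary gland (1.84, adjusted p = 0.055). Member calls for Targretin against diet in liver became 2 with array quality weights and without the doubted arrays; those against 4HPR in liver became 2 and 3, and 9cRA against diet in lung became 1 with weights. For Targretin against 4HPR in mammary gland they became 0 under quantile normalization, with no filter on low values and without the doubted arrays. For the Targretin change between organs they became 2 with weights, 0 without the doubted arrays and 2 when the filter had to be met in at least 1 organ, where Dio1 X57999cds_at was added (adjusted p = 0.0497). List genes called with 9cRA in liver, 2, became 5 (quantile), 6 (weights), 4 (doubted arrays out) and 6 (only both groups fitted), and 5 when any probe set of a gene counted, an alternative added after the data were seen, and with 4HPR in liver, 4, became 7 (weights). In lung they became 9 with 9cRA and 5 with 4HPR (weights), and 0 with Targretin when only both groups were fitted. The causes were not tested.

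These uncalled values changed sign. Klf9 D12769_at with 4HPR in liver, -0.064, was 0.031 (quantile), 0.22 (weights) and 0.31 (doubted arrays out). Dio1 with 4HPR in liver was -0.00342 and -0.070 for rc_AI639418_at and 0.17 and 0.24 for X57999cds_at (weights, doubted arrays out). Nr1d1 M25804_g_at with Targretin in liver was 0.044 (weights) and 0.094 (doubted arrays out). In lung with Targretin Klf9 D12769_at was -0.028 (quantile) and D12769_g_at was -0.025 (doubted arrays out). Thra M31174_at with 9cRA in mammary gland was 0.0078 (quantile).

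Leaving out single arrays gave 5 to 10 list genes called with Targretin in liver, 2 to 4 with 9cRA and 2 to 5 with 4HPR; in lung 0 to 2, 0 to 3 and 0 to 3; and 0 to 1 with 9cRA in mammary gland. Member calls were 1 to 3 for Targretin against 4HPR and 1 to 2 against 9cRA in liver, 0 to 1 against 4HPR in mammary gland and 0 to 1 for the Targretin change between organs. Ranges that crossed 0, all uncalled, were these. Klf9 D12769_at ran from -0.25 to 0.25 with 4HPR in liver, -0.0051 to 0.21 with 4HPR, -0.22 to 0.074 with 9cRA and -0.19 to 0.29 with Targretin in lung. Klf9 D12769_g_at ran from -0.0025 to 0.16 with 4HPR and -0.025 to 0.60 with Targretin in lung, and -0.11 to 0.11 with Targretin in liver. Dio1 X57999cds_at with 4HPR in liver ran from -0.36 to 0.27, and rc_AI639418_at from -0.12 to 0.40 for untreated mammary gland against lung. Thra X12744_at in liver ran from -0.37 to 0.038 with 9cRA and -0.062 to 0.31 with Targretin. Thra M31174_at in mammary gland ran from -0.085 to 0.047 with 9cRA and -0.064 to 0.037 with 4HPR, and M31174_g_at from -0.087 to 0.39 for untreated mammary gland against lung. Nr1d1 M25804_g_at with Targretin in liver ran from -0.15 to 0.094. Over all probe sets, the quantile setting shifted the median by 0.10 for 4HPR against diet in liver and by -0.11 for Targretin against 4HPR in mammary gland. Low signal kept Thrb, and Dio1 outside liver, under the filter.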
